A study of Mus musculus with 6 samples.

Results

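The 10 inhibitory checkpoint genes described here were followed in macrophages of a mouse lung tumour: the PD-1 ligand genes Cd274 and Pdcd1lg2, the VISTA gene Vsir, the TIM-3 gene Havcr2 and its ligand gene Lgals9, the pair Sirpa and Cd47, and the receptor genes Lair1, Pilra and Siglece. They were found by symbol in GENCODE M21 on GRCm38, and all 10 of 10 had a row among the 55487 genes of the count tables. Lewis lung carcinoma cells, a transplantable mouse lung cancer line, had been grown under the skin of the flank of C57BL/6 mice, with no drug treatment or engineered allele named in the labels, and tumours were taken from day 15 to day 17. Cells positive for CD11b and F4/80 and negative for Ly6C and Ly-6G were sorted by surface MHC class II, which gave 3 libraries labelled MHC-IIhigh and 3 labelled MHC-IIlow, one of each per batch 1, 2 and 3. Age, sex and the number of mice behind a library are not given in the labels, so a p-value reflects how far these libraries vary, and that variation may be technical.

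Checkpoint ligands and receptors lower the activity of immune cells. PD-L1 and PD-L2 engage PD-1 on T cells, VISTA and TIM-3 restrain T cells and myeloid cells, and galectin 9 is a sugar-binding ligand of TIM-3. CD47 on a target cell engages SIRPA on a macrophage and restrains phagocytosis. LAIR1, a collagen receptor, PILRA, a receptor for sialylated glycoproteins, and Siglec-E, a sialic acid receptor of mouse myeloid cells, belong with SIRPA to the receptors that carry an immunoreceptor tyrosine-based inhibitory motif (ITIM) in the cytoplasmic tail. Once its tyrosine is phosphorylated the motif recruits the phosphatases SHP-1 and SHP-2. Tumour macrophages are a well-known site of PD-L1 and SIRPA.

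The codons of these motifs are shown because they define the receptor subgroup. They were read from GENCODE M21 transcripts, after the most hydrophobic stretch of each coding sequence, on GRCm38. Motifs of the ITIM form numbered 3 in Sirpa, 2 in Lair1, 1 in Pilra and 1 in Siglece, and 0 in Cd274, Pdcd1lg2, Havcr2, Vsir and Cd47. Lgals9, which encodes a protein with no such stretch, was not searched. Sirpa, Pilra and Siglece also held 1 motif each of the related switch form (ITSM). Capitals mark the tyrosine codon, and codons are counted from the start codon.
Sirpa ITIM, tyrosine codon 440, chr2:129629954-129629971, plus strand: atcacaTACgcagacctg
Sirpa ITIM, tyrosine codon 481, chr2:129630077-129630094, plus strand: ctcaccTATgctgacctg
Sirpa ITIM, tyrosine codon 505, chr2:129630149-129630166, plus strand: tcagagTATgctagtgtc
Sirpa ITSM, tyrosine codon 464, chr2:129630026-129630043, plus strand: acagaaTATgcaagcatt
Lair1 ITIM, tyrosine codon 228, chr7:4009790-4009807, minus strand: gtgacgTATatccagctg
Lair1 ITIM, tyrosine codon 257, chr7:4009703-4009720, minus strand: agcacaTATgcagccatc
Pilra ITIM, tyrosine codon 267, chr5:137823571-137823588, minus strand: atcgtgTATgcttccatc
Pilra ITSM, tyrosine codon 296, chr5:137823484-137823501, minus strand: actgtgTACtccatcgta
Siglece ITIM, tyrosine codon 432, chr7:43651585-43651602, minus strand: atacatTATgcgaccctc
Siglece ITSM, tyrosine codon 455, chr7:43651516-43651533, minus strand: acggagTACtcagagata
The motifs lay in exon 8 of the transcripts of Sirpa and Lair1 and in exon 7 of those of Pilra and Siglece. TAT and TAC both encode tyrosine.

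Reads in genes ranged from 15159356 to 25473051 in the libraries labelled MHC-IIhigh and from 10202879 to 21290781 in those labelled MHC-IIlow. Transcripts of MHC class II went against the labels. H2-Aa, a chain of the MHC class II molecule I-A, had 4.40, 5.48 and 6.69 CPM (counts scaled to a common TMM-normalised library size) in the libraries labelled MHC-IIhigh and 1377, 1166 and 1506 CPM in those labelled MHC-IIlow (log2 fold change -7.93, adjusted p 2.59e-05 by edgeR), so every direction below is that of libraries as labelled. H2-Ab1, H2-Eb1 and Cd74, of the same pathway, averaged 25.6 ± 0.80, 2.20 ± 0.38 and 30.6 ± 4.94 CPM in the high-labelled libraries and 1570 ± 549, 711 ± 176 and 3050 ± 1318 CPM in the low-labelled libraries. Of the gate, Adgre1, which encodes F4/80, averaged 344 ± 25.8 CPM under the high label and 184 ± 33.8 CPM under the low label (SD, n = 3 each), Itgam, which encodes CD11b, 307 ± 8.15 and 265 ± 71.2 CPM, and Ly6g had 0 reads in all 6 libraries. Markers of conventional dendritic cells summed to 59.9 to 108.6 CPM in the libraries labelled MHC-IIhigh and to 297 to 427 CPM in those labelled MHC-IIlow, with 4 of 9 tested genes, Flt3, Ccr7, Itgax and Ccl22, called lower and none of the 12 listed at 0 in all libraries. Most of that sum was Itgax, which macrophages also express, with 50.5, 45.2 and 88.1 CPM in the high-labelled libraries and 287, 241 and 385 CPM in the low-labelled libraries, while the more restricted Flt3, Zbtb46, Ccr7, Xcr1, Clec9a and Batf3 had at most 5.97 CPM in any library. Monocyte markers summed to 266 to 377 CPM under the high label and 344 to 941 CPM under the low label, with 0 of 5 tested genes called. Among them Ccr2 averaged 212 ± 45.3 and 521 ± 239 CPM and was called lower with the GC offset described below (adjusted p 0.00281 by edgeR). Macrophage markers summed to 9954 to 12146 and 6634 to 12435 CPM, with 0 of 10 called, and with that offset Adgre1 (0.0158) and Lyz2 (0.0116), at 6456 ± 562 and 3384 ± 264 CPM, were called higher. The fit with the offset called 1.06% of tested genes higher and 1.53% lower. Of the tumour and epithelial markers Cdh1 was called lower, at 10.3 ± 1.21 and 33.9 ± 3.70 CPM, while Krt18 averaged 5.68 ± 3.59 and 5.48 ± 2.39 CPM and Krt8 1.83 ± 0.97 and 2.09 ± 1.39 CPM, Krt19 and Epcam had at most 0.213 CPM and Cldn7 had 0 reads, so Cdh1 carried the difference in their sums of 14.8 to 21.6 and 41.0 to 42.6 CPM, under the high and the low label. B cell markers summed to 2.23 to 2.90 and 6.54 to 13.03 CPM under the high and the low label, with 0 of 2 tested genes called. Fibroblast markers summed to 71.8 to 407 and 126 to 596 CPM under the high and the low label, with 0 of 6 tested genes called. Most of that was Col3a1, with 308, 293 and 52.5 CPM in labelled MHC-IIhigh replicates 1, 2 and 3. In labelled MHC-IIlow replicates 1, 2 and 3 Col3a1 had 398, 457 and 108 CPM. Labelled MHC-IIlow replicate 3 stood apart: an rRNA copy took 47.3% of its reads in genes. That copy took 13.5% in labelled MHC-IIlow replicate 1 and 3.85% to 5.17% in the remaining libraries. Outside rRNA and mitochondrial genes labelled MHC-IIlow replicate 3 had 4669283 reads, against 11670849 to 17982808 in the other libraries. Its log2 CPM climbed by 0.70 per 10 percentage points of GC content. That slope was -0.09, -0.38 and -0.58 in labelled MHC-IIhigh replicates 1 to 3, and 0.08 and -0.47 in labelled MHC-IIlow replicates 1 and 2.

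On a scale adjusted for exon length, CPM per kilobase of exon, Sirpa led the set with 120 to 284 over the 6 libraries. It stood at the 98.6th percentile or higher among tested protein-coding genes in each. Pilra followed with 64.8 to 75.8, Lgals9 with 38.5 to 72.7, Vsir with 27.2 to 89.9, Cd47 with 29.4 to 44.6 and Havcr2 with 19.7 to 40.4. Lair1 had 13.7 to 25.9, Cd274 15.5 to 23.2 and Siglece 5.39 to 13.2 CPM per kilobase. Pdcd1lg2 was at the bottom with 0 to 0.299. Adjacent genes in this order of mean level kept their order in all 6 libraries for Sirpa over Pilra, Cd47 over Havcr2, Havcr2 over Lair1, Cd274 over Siglece and Siglece over Pdcd1lg2. The order held in 5 libraries for Pilra over Lgals9, in 4 for Lgals9 over Vsir and for Lair1 over Cd274, and in 3 for Vsir over Cd47. Pilra was below Lgals9 only in labelled MHC-IIlow replicate 3, at 66.2 and 72.7. No test between genes was run. The scale does not correct for GC content, and the GC slope differed between libraries. Vsir, at 54.0% GC, was above Cd47, at 42.2% GC, in labelled MHC-IIhigh replicate 1 and labelled MHC-IIlow replicates 1 and 3. These libraries had the highest GC slopes. The part of the GC trend in this order was not tested. In bulk samples, fewer cells that express a gene and less RNA of it per cell cannot be told apart.

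**Figure D1:**
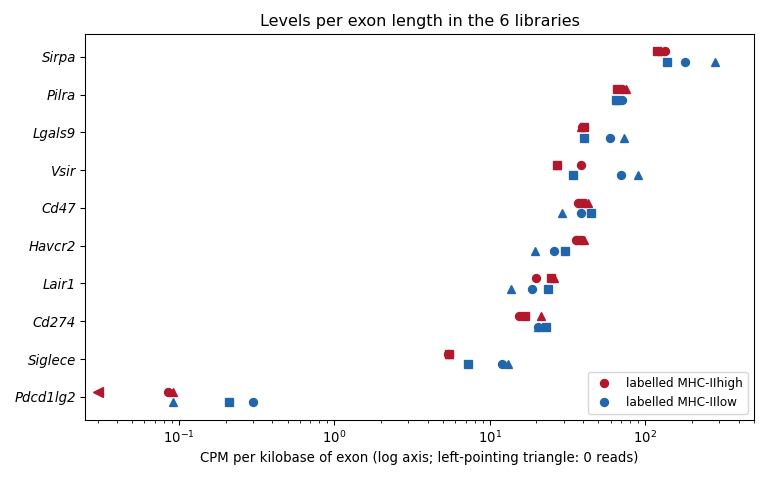
Level of each checkpoint gene in CPM per kilobase of exon (log axis), 1 point per library, labelled MHC-IIhigh in red above labelled MHC-IIlow in blue; circles, squares and upward triangles are batches 1, 2 and 3, and a left-pointing triangle is a library with 0 reads. Sirpa lies at 120 to 284 in the 6 libraries and Pdcd1lg2 at no more than 0.299, and the middle of the order from Lgals9 to Cd47 overlaps.

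The comparison of the labels asked which of these genes differ between macrophages sorted by MHC class II. None of the 9 tested genes passed edgeR's quasi-likelihood test at an adjusted p under 0.05 over 14140 genes, of which 0.446% were called in either direction (63 genes), 0.0919% higher and 0.354% lower. With the batch as a block 0.290% of all tested genes were called (41 genes), and again 0 of the 9. At an unadjusted p under 0.05 stood 5 of the 9, Havcr2, Vsir, Lgals9, Sirpa and Siglece, where the share of all tested genes was 12.1%. Every library labelled MHC-IIhigh lay above every library labelled MHC-IIlow for Havcr2 alone, a pattern found in 10.5% of tested genes, and below for Sirpa and Siglece, a pattern found in 9.48%. The median log2 fold change of the 9 genes was -0.26, against -0.021 over all tested genes, and 5 of the 9 values were negative, as were 51.5% of all values.

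**Figure D2:**
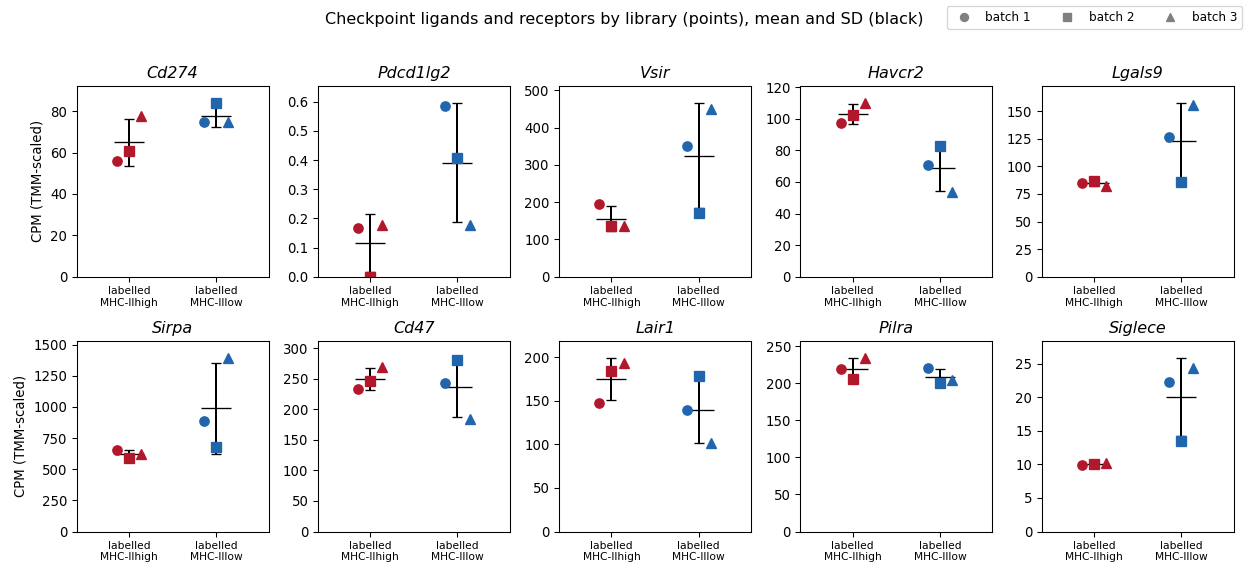
CPM of each checkpoint gene on a linear axis from 0, labelled MHC-IIhigh left in red and labelled MHC-IIlow right in blue, 1 point per library with the batch as its shape; black lines are the mean and SD of 3 libraries. Havcr2 shows the labelled MHC-IIhigh points at 97.2 to 110.0 CPM above the labelled MHC-IIlow points at 53.5 to 82.7 CPM, and Siglece the reverse order.

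Among the ligands of PD-1, Cd274 (PD-L1, chr19:29367455-29388095, plus strand) was well covered, with 418 to 2175 reads a library. It had 56.1, 61.0 and 77.8 CPM in labelled MHC-IIhigh replicates 1, 2 and 3 and 74.7, 84.0 and 74.6 CPM in labelled MHC-IIlow replicates 1, 2 and 3. The highest labelled MHC-IIhigh library, that of batch 3, lay inside the labelled MHC-IIlow range, and the log2 ratios within batches 1, 2 and 3 were -0.41, -0.46 and 0.06. The log2 fold change was -0.26 with a standard error of 0.19 (adjusted p 0.52 by edgeR). With an offset for each library's GC trend and the batch as a block, Cd274 was called lower, at -0.45 with a standard error of 0.09 (adjusted p 0.0423), in a fit that called 4.36% of tested genes and 2.66% lower, and with the GC offset alone its adjusted p was 0.15. GC-corrected levels were 56.3, 56.3 and 69.4 CPM in the high-labelled libraries and 78.0, 74.6 and 97.1 CPM in the low-labelled libraries, which do not overlap, as 10.3% of tested genes did not in this direction. The tested genes at 5 CPM or more whose log2 CPM was most like that of Cd274 over the 6 libraries were Mmp12, a macrophage elastase, Ifit1, an interferon-stimulated gene, and Cd86, a costimulatory ligand, with Pearson's r of 0.991, 0.988 and 0.986 among 9371 genes compared, as a description of 6 libraries that share these batches.

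Pdcd1lg2 (PD-L2, chr19:29410919-29471161, plus strand), which begins 22823 bases beyond the end of Cd274, had 3, 0 and 5 reads in labelled MHC-IIhigh replicates 1, 2 and 3 and 11, 10 and 1 reads in labelled MHC-IIlow replicates 1, 2 and 3. The libraries labelled MHC-IIhigh held 4551 reads of Cd274 and 8 of Pdcd1lg2 in all, and those labelled MHC-IIlow held 3873 and 22. Too few reads kept Pdcd1lg2 out of the test, and without the filter on low counts its adjusted p was 0.474 by edgeR. A difference between the labels was not detectable at this depth. Promoters of both genes, from 250 bases before to 50 bases after the start of the gene (RefSeq, GRCm38.p6), are shown as the context of neighbours so far apart in level, with CpG dinucleotides in capitals.
Cd274 promoter, chr19:29367188-29367487, plus strand: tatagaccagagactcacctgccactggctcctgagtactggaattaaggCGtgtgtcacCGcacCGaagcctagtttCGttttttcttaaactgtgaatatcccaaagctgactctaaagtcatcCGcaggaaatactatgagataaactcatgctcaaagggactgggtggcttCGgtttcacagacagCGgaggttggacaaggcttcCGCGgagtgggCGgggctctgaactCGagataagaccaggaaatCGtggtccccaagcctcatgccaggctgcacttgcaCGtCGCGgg
Pdcd1lg2 promoter, chr19:29410669-29410968, plus strand: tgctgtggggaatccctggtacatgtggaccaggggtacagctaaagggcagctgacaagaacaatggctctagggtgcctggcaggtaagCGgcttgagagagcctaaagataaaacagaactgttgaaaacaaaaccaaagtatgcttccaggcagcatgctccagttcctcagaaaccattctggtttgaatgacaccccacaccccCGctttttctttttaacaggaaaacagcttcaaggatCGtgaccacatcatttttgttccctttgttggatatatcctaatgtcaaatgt
The Cd274 promoter held 15 CpG dinucleotides and that of Pdcd1lg2 3, with a median of 7 over 32851 promoters in the RefSeq table. On either strand, neither held the interferon-type motifs TTCNNNGAA, found in 8.3% of all promoters, or GAAANNGAAA, found in 3.44%. In the same windows Lgals9 held GAAANNGAAA at 2 positions and Pilra at 1, with no overlap between the motifs, and Havcr2, Vsir, Cd47, Lair1 and Siglece held neither. These matches are a description of the letters in each window.

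Vsir (VISTA, chr10:60346851-60372684, plus strand), a B7-related receptor and ligand, had 195, 136 and 137 CPM in labelled MHC-IIhigh replicates 1, 2 and 3 and 351, 172 and 451 CPM in labelled MHC-IIlow replicates 1, 2 and 3. Labelled MHC-IIlow replicate 2 lay within the range of the labelled MHC-IIhigh libraries, so the groups overlap. Within batches the log2 ratios were all negative, at -0.85, -0.34 and -1.72. The log2 fold change was -1.06 with a standard error of 0.34 (adjusted p 0.316 by edgeR). It passed with the GC offset and batch block, at -0.64 (adjusted p 0.0353 by edgeR), in a fit that called 4.36% of tested genes and 2.66% lower. Without the filter on low counts it passed at -0.96 (adjusted p 0.0137 by edgeR), in a fit that called 549 of 27192 genes and 436 lower. The standard error of Vsir in that fit was 0.256. It was 0.253 to 0.255 for Cd274, Havcr2, Lgals9, Cd47, Lair1 and Pilra, so it hardly reflected the spread of each gene. Vsir did not pass with the GC offset alone (0.128) or the block alone (0.417).

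TIM-3 and its ligand had opposite signs. Havcr2 (chr11:46454935-46481255, plus strand) had 97.2, 102 and 110.0 CPM in labelled MHC-IIhigh replicates 1, 2 and 3 and 70.5, 82.7 and 53.5 CPM in labelled MHC-IIlow replicates 1, 2 and 3. The groups do not overlap, and the log2 ratios within batches were 0.46, 0.31 and 1.04. The log2 fold change was 0.58 with a standard error of 0.20 (adjusted p 0.358 by edgeR). With the GC offset Havcr2 was the only one of the 9 called, at 0.43 with a standard error of 0.09 (adjusted p 0.0466), in a fit that called 2.59% of tested genes and 1.06% higher. GC-corrected levels were 97.6, 94.9 and 99.1 CPM in the high-labelled libraries and 73.4, 74.1 and 68.5 CPM in the low-labelled libraries, with SDs of 2.12 and 3.01, and did not overlap, as in 14.1% of tested genes in this direction. Adding the batch block to the offset gave an adjusted p of 0.0554.

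Lgals9 (galectin 9, chr11:78962974-78984946, minus strand) had 84.5, 86.7 and 82.3 CPM in labelled MHC-IIhigh replicates 1, 2 and 3 and 126, 86.1 and 155 CPM in labelled MHC-IIlow replicates 1, 2 and 3. Replicate 2 stood at nearly the same level under both labels, with a log2 ratio of 0.009, and batches 1 and 3 had -0.58 and -0.92. The log2 fold change was -0.53 with a standard error of 0.23 (adjusted p 0.408 by edgeR) and -0.32 with the GC offset (0.285). On the per-kilobase scale the ratio of Havcr2 to Lgals9 within a library was 0.903, 0.928 and 1.05 in labelled MHC-IIhigh replicates. In labelled MHC-IIlow replicates it was 0.438, 0.755 and 0.271. The groups do not overlap in this ratio, nor in Havcr2 alone, and the share of other gene pairs without overlap was not computed. The longest transcript of Havcr2 has 45.3% GC and that of Lgals9 51.8%, so this ratio also moves with a library's GC trend, and the part of that trend in it was not tested.

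Sirpa (chr2:129592835-129632228, plus strand), the macrophage receptor for CD47, had 658, 587 and 619 CPM in labelled MHC-IIhigh replicates 1, 2 and 3 and 888, 682 and 1393 CPM in labelled MHC-IIlow replicates 1, 2 and 3. The lowest labelled MHC-IIlow library was just above the highest labelled MHC-IIhigh library. Its log2 fold change was -0.67 with a standard error of 0.27 (adjusted p 0.398 by edgeR), and -0.34 without labelled MHC-IIlow replicate 3 (0.609). With the GC offset it was -0.27 (0.352), with 657 to 785 CPM under the high label and 775 to 968 CPM under the low label, which overlap.

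Cd47 (chr16:49800533-49915010, plus strand), the ligand of SIRPA, had 234, 246 and 269 CPM in labelled MHC-IIhigh replicates 1, 2 and 3 and 243, 280 and 185 CPM in labelled MHC-IIlow replicates 1, 2 and 3. The ranges overlap, and the log2 fold change of 0.08 had a 95% interval from -0.37 to 0.54 (adjusted p 0.842 by edgeR). The sign of Cd47 turned to -0.16 with the GC offset (0.455) and to -0.07 without labelled MHC-IIlow replicate 3. GC-corrected levels were 234, 222 and 228 CPM in the high-labelled libraries and 260, 238 and 265 CPM in the low-labelled libraries. They do not overlap, as 10.3% of tested genes did not in this direction. Per kilobase, Sirpa stood at 3.60, 3.05 and 2.94 times Cd47 under the high label and at 4.67, 3.12 and 9.64 times Cd47 under the low label. The groups overlap in this ratio, and labelled MHC-IIlow replicate 3 set its upper end. The longest transcript of Sirpa has 54.2% GC and that of Cd47 42.2%, so this ratio also moves with a library's GC trend. The part of that trend in it was not tested.

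Of the other ITIM receptors, Siglece (chr7:43651070-43660161, minus strand) had the smallest p of the set. It had 9.96, 10.1 and 10.2 CPM in labelled MHC-IIhigh replicates 1, 2 and 3 and 22.3, 13.5 and 24.5 CPM in labelled MHC-IIlow replicates 1, 2 and 3, from 137 to 418 reads a library. The labelled MHC-IIhigh libraries lay within 0.2 CPM of each other and below all of the others, and the log2 ratios within batches were -1.16, -0.42 and -1.27. The log2 fold change was -0.99 with a standard error of 0.26 (adjusted p 0.213 by edgeR). DESeq2 called it lower, at -0.95 (adjusted p 0.048), with 2.35% of its tested genes called and 1.68% called lower. GC-corrected levels were 10.0, 11.05 and 12.3 CPM in the high-labelled libraries and 20.2, 14.8 and 18.4 CPM in the low-labelled libraries. They do not overlap, as 10.3% of tested genes did not in this direction, and the log2 fold change was -0.68 (adjusted p 0.0717 by edgeR).

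Lair1 (chr7:4003402-4063204, minus strand) had 148, 184 and 193 CPM in labelled MHC-IIhigh replicates 1, 2 and 3 and 139, 179 and 102 CPM in labelled MHC-IIlow replicates 1, 2 and 3. Batches 1 and 2 had log2 ratios of 0.09 and 0.04, and batch 3 had 0.92. The log2 fold change of 0.32 had a 95% interval from -0.22 to 0.86 (adjusted p 0.525 by edgeR), and it was 0.14 without labelled MHC-IIlow replicate 3. Pilra (chr5:137821952-137836281, minus strand) had 220, 205 and 234 CPM in labelled MHC-IIhigh replicates 1, 2 and 3 and 221, 200 and 205 CPM in labelled MHC-IIlow replicates 1, 2 and 3. Its levels had the narrowest ranges relative to their size among the 9 tested genes, and the log2 fold change of 0.08 had a 95% interval from -0.29 to 0.44 (adjusted p 0.816 by edgeR). Of its 3090 exon bases 468 overlap Zcwpw1 on the opposite strand, which had 586 reads in all libraries, and 511 of the 3622 of Cd274 overlap the antisense gene AC119228.1, which had 24 reads in all libraries. Pilra also has close relatives, Pilrb1 and Pilrb2, as Sirpa has in the Sirpb1 genes. Reads aligned to several places were not counted, and how many such reads these genes lost is not known.

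Fold change followed GC content among these genes as among all. Over the 9 genes the Spearman correlation between the fold change and the GC content of the longest transcript was -0.80, and over 14123 tested genes it was -0.58, as a description of genes measured in the same 6 libraries. Vsir, Sirpa, Siglece and Lgals9, with 54.0%, 54.2%, 53.2% and 51.8% GC, had the 4 lowest fold changes, and Cd47, Lair1, Cd274 and Havcr2 lie between 42.2% and 45.3%. Labelled MHC-IIlow replicate 2, whose GC slope was near that of labelled MHC-IIhigh replicates 2 and 3, was also the labelled MHC-IIlow library nearest to the labelled MHC-IIhigh means for Vsir, Lgals9, Sirpa, Siglece and Havcr2. Without it 4 of the 9 genes were called, Havcr2 higher and Vsir, Lgals9 and Siglece lower, and 7.16% of all tested genes were called, 1.71% higher and 5.45% lower. Leaving out the library nearest to the other label widens the contrast of these genes by itself, so these calls add no support. With the GC offset every fold change but that of Cd47 kept its sign, and the median of the 9 was -0.27, against 0.015 over all tested genes. The part of the GC trend and of the dendritic cell and fibroblast markers in these fold changes was not tested.

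**Figure D3:**
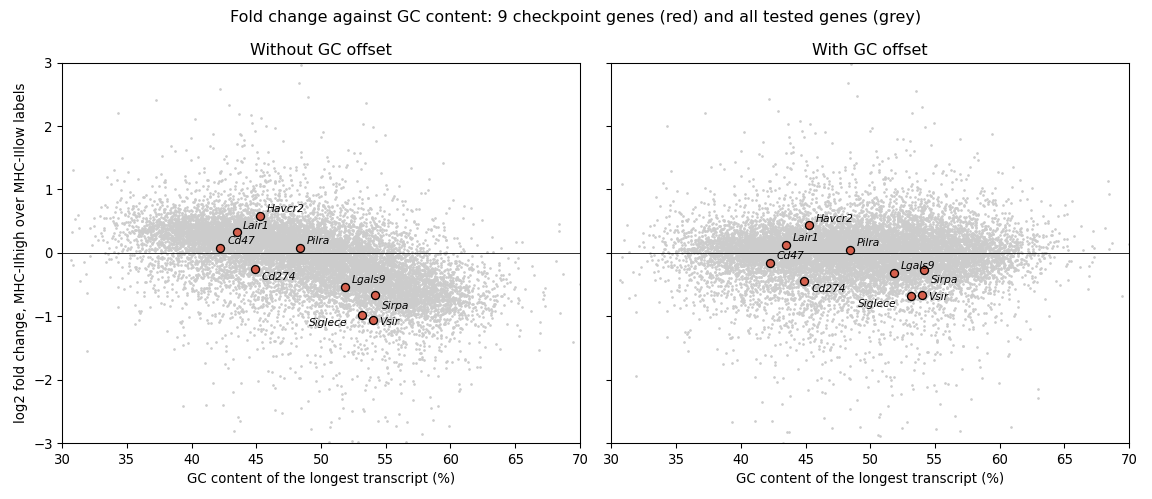
Log2 fold change of labelled MHC-IIhigh over labelled MHC-IIlow libraries against GC content of the longest transcript, without (left) and with (right) the GC offset; grey points are the tested genes, red points 9 checkpoint genes, and the vertical axis covers -3 to 3. The grey cloud falls with GC content on the left, with a Spearman correlation of -0.58. On the right the offset takes out each library's GC trend by construction, and Vsir and Siglece are at -0.66 and -0.68.

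**Figure D4:**
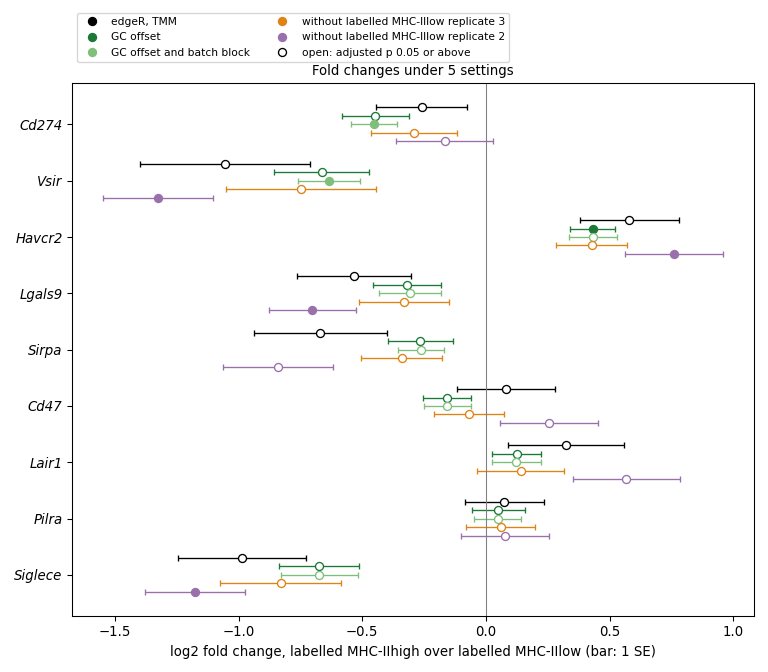
Log2 fold change (points) and 1 standard error (bars) of 9 checkpoint genes, labelled MHC-IIhigh over labelled MHC-IIlow, under 5 settings (edgeR with TMM, GC offset, GC offset with batch block, and without labelled MHC-IIlow replicate 3 or 2); filled points have an adjusted p under 0.05. Cd274, Siglece, Vsir, Lgals9 and Sirpa are negative and Havcr2, Lair1 and Pilra positive in all 5, while Cd47 changes sign and filled points differ between settings.

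Related genes were described by lists chosen with earlier results of these data known. Of 20 other T cell checkpoint genes, 12 were tested and 0 called, but their median log2 fold change was -0.83 and 7 of the 12 did not overlap on the lower side, where the share of all tested genes was 9.48%. Tnfrsf14, the herpesvirus entry mediator that binds BTLA, averaged 17.7 ± 2.62 CPM under the high label and 36.4 ± 13.2 CPM under the low label (SD, n = 3 each). Fgl2, a secreted inhibitory ligand, averaged 9.20 ± 1.30 and 17.9 ± 5.95 CPM, and Cd244a, a receptor of the SLAM family, 16.4 ± 3.29 and 27.8 ± 4.38 CPM, under the high and the low label. With the GC offset these 3 and Cd80, a ligand of CTLA-4 that also binds PD-L1, were called lower, 4 of 12 in a fit that called 1.53% of tested genes lower. Dendritic cell marker sums and Ccr2, given above, were also higher in the low-labelled libraries, and their part in this list was not tested. Lag3, a T cell inhibitory receptor also found in some dendritic cells, had 10, 4 and 5 reads in labelled MHC-IIhigh replicates and 41, 15 and 20 reads in labelled MHC-IIlow replicates. Pdcd1, which encodes PD-1, had 0 reads in each library labelled MHC-IIhigh and 4, 10 and 0 in those labelled MHC-IIlow. The T cell genes Cd3e, Cd3d and Cd8a had 0 reads in all 6 libraries. Trac, also a T cell gene, had 0 reads in each library labelled MHC-IIhigh and 5, 14 and 1 in those labelled MHC-IIlow. T and NK cell markers summed to 0.67 to 1.29 CPM under the high label and 2.45 to 2.66 CPM under the low label, most of it Cd4. The part of such cells in the Pdcd1 reads was not tested. Pdcd1, Trac, Cd4 and Cd80 were named after their values were seen.

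Of 14 partners of the checkpoint proteins, 11 were tested and 0 called, with a median log2 fold change of -0.22. Ceacam1, an ITIM receptor that also binds TIM-3, averaged 56.4 ± 2.76 CPM under the high label and 32.8 ± 3.92 CPM under the low label. Its log2 fold change was 0.78 with a standard error of 0.18 (adjusted p 0.141 by edgeR). With the GC offset Ceacam1 was called higher (0.0407), as Havcr2 was, and Cd80, also of this list, was called lower (0.0494). That fit called 1.06% of tested genes higher and 1.53% lower. Qpct, a glutaminyl cyclase related to the one that modifies CD47, averaged 11.5 ± 0.94 and 5.49 ± 1.01 CPM, and Thbs1, which encodes the CD47 ligand thrombospondin 1, 330 ± 67.1 and 589 ± 227 CPM, under the high and the low label. Timd4, which encodes the phosphatidylserine receptor TIM-4, averaged 0.32 ± 0.18 and 1.07 ± 0.63 CPM. Of the 10 genes between interferon gamma and the PD-1 ligands 0 were called, with or without the GC offset, and their median was -0.10. Socs1, an inhibitor of interferon signalling, had the lowest p of the list (adjusted p 0.285 by edgeR). Its levels were 0.72, 0.80 and 0.43 CPM in the high-labelled libraries and 1.81, 1.23 and 3.75 CPM in the low-labelled libraries. They do not overlap, as in 9.48% of tested genes in this direction. The log2 fold change of Socs1 was -1.70, or -1.11 with the GC offset (0.161). Irf2 averaged 45.2 ± 2.86 and 57.8 ± 13.9 CPM, Stat3 109 ± 14.3 and 158 ± 34.7 CPM and Irf1, a factor known to induce Cd274, 39.3 ± 10.4 and 49.5 ± 16.8 CPM under the high and the low label.

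Among 16 other myeloid ITIM receptors 13 were tested and 0 called, with a median log2 fold change of 0.02, or -0.01 with the GC offset. Cd300a, a receptor for lipids of dying cells, averaged 39.1 ± 2.82 CPM under the high label and 63.1 ± 7.70 CPM under the low label. It was called lower with the GC offset (adjusted p 0.0354 by edgeR), in a fit that called 1.53% of tested genes lower and 1.06% higher. Clec12a, a lectin receptor, averaged 153 ± 32.3 and 89.9 ± 30.9 CPM, and Pirb, a receptor for MHC class I named after its values were seen, 318 ± 20.7 and 315 ± 17.9 CPM, under the high and the low label. Pecam1, the adhesion receptor CD31, averaged 3.20 ± 0.74 and 6.60 ± 1.54 CPM. Of 11 phosphatases and adaptors of ITIMs 0 were called, with a median of -0.25, and with the GC offset Dok3, named after its values were seen, was called higher and Sh2d1b1 lower. Sh2d1b1, the SLAM receptor adaptor EAT-2, averaged 2.67 ± 1.44 and 11.2 ± 2.17 CPM under the high and the low label. The kinase gene Csk averaged 33.1 ± 11.3 and 66.8 ± 45.0 CPM, the adaptor genes Dok1 12.9 ± 2.62 and 25.6 ± 12.6 CPM and Skap2 147 ± 6.77 and 116 ± 21.8 CPM. All 13 activating counterparts and adaptors were tested and 0 called, with a median of -0.54, or -0.21 with the GC offset. With that offset Sirpb1c, named after its values were seen, was called lower (adjusted p 0.0232 by edgeR). Pilrb1 and Pilrb2, the activating relatives of Pilra, averaged 10.9 ± 0.63 and 21.0 ± 3.17 CPM in the high-labelled libraries and 18.1 ± 3.70 and 36.9 ± 8.36 CPM in the low-labelled libraries. Fcer1g, the shared Fc receptor gamma chain, averaged 610 ± 66.2 and 1001 ± 265 CPM and Cd300lb 75.9 ± 0.64 and 57.3 ± 7.49 CPM under the high and the low label. Of 9 tested genes of other phagocytosis checkpoints 0 were called, and with the GC offset Cd24a, whose product is a ligand of Siglecs, was called lower and Itgb2, an integrin chain, higher. Cd24a averaged 9.31 ± 2.51 and 18.9 ± 4.30 CPM, Itgb2 866 ± 183 and 642 ± 155 CPM, the scavenger receptor gene Lrp1 502 ± 245 and 941 ± 980 CPM and the myosin gene Myh9 634 ± 227 and 992 ± 602 CPM under the high and the low label.

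**Figure D5:**
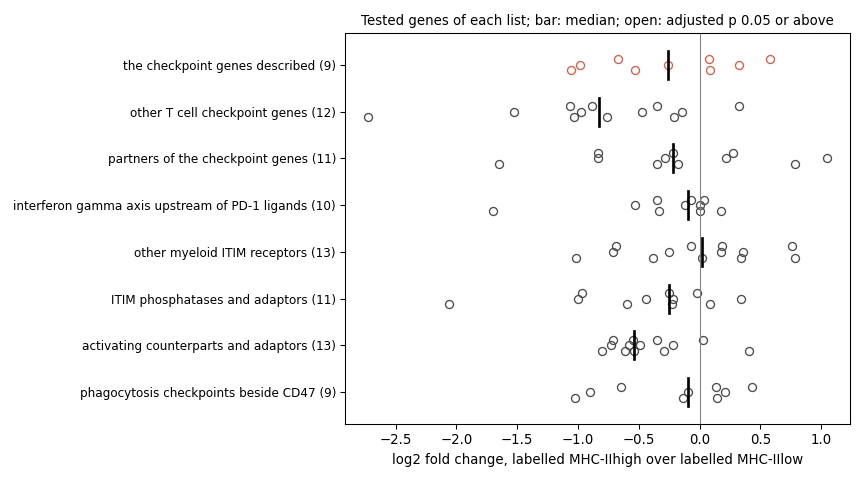
Log2 fold change of labelled MHC-IIhigh over labelled MHC-IIlow libraries for the tested genes of each list, with the number tested in brackets and the median as a black bar; open points have an adjusted p of 0.05 or above. All points are open, and the other T cell checkpoint genes have the lowest median, at -0.83.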

How the data were processed

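Sequencing of rRNA-depleted total RNA from stranded kits, per the labels' protocols, gave 6 libraries. The authors deposited raw counts of reads for each Ensembl gene, made with FastQC, Trimmomatic, STAR and HTSeq on GRCm38, per the submitters' processing notes, which also name DESeq2. The annotation release, tool versions and strand setting were not given in the sources used here, so reads of overlapping and antisense genes cannot be told apart. Reads assigned to no gene, 35.2% to 49.4% of listed reads in no feature, 0.324% to 0.864% ambiguous and 7.60% to 17.4% aligned to several places, stayed out of library sizes and tests. GENCODE M21 (GRCm38) matched 55227 of 55487 genes.

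The quasi-likelihood test of edgeR 4.0.16 under R 4.3.3 was the main test of the counts (TMM, default filter on low counts, Benjamini-Hochberg adjustment over all tested genes at 0.05), without further terms. Standard errors are the fold change over the square root of F. CPM are counts over TMM-scaled library sizes, and per-kilobase levels divide by the merged exon length. The checkpoint genes, lists and tests were chosen with earlier results of these data known. Genes named from a list were up to 4 of lowest p among those reaching 1 CPM in either label. Alternatives were RLE factors, total counts, DESeq2 1.42.0, limma-voom 3.58.1, other filters on low counts, the batch as block, removal of rRNA and mitochondrial genes, a GC offset (each library's local regression of log2 CPM on GC content, span 0.4) alone and with the block, and leaving out libraries. The pairs come from the batch label, equal to the title number. Deviations of same-numbered libraries from their group means correlated at 0.16, 0.34 and -0.12. Those of differently numbered libraries correlated at -0.49 to 0.35, a range that holds all of the same-numbered values. No protein sequences were used.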

Additional observations from a re-analysis of the deposited data

How the results depend on the processing

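Of 153 refits of the 9 tested checkpoint genes under 17 alternatives, 148 kept the sign of the fold change, 9 brought a gene past the threshold and 5 changed the sign. The sign changed for Cd274 with total counts (0.007) and for Cd47 with the GC offset (-0.157), with the GC offset and replicate block (-0.157), without labelled MHC-IIlow replicate 3 (-0.067) and without both libraries of batch 3 (-0.119). Leaving out 1 library, Cd47 ranged from -0.067 to 0.254. Total counts moved the median of all genes to 0.252, against -0.021 with TMM, so that Cd274 stayed below that median. The checkpoint genes called, 0 of 9, became 1 with DESeq2 (Siglece), 1 without a filter on low counts (Vsir), 1 with the GC offset (Havcr2), 2 with the GC offset and block (Cd274 and Vsir) and 0 to 4 without 1 library. All genes called, 63, became 379 with DESeq2, 549 without a filter, 366 with the GC offset, 617 with the GC offset and block, 41 with the replicate block, 28 without both libraries of batch 3 and 8 to 1030 without 1 library, the 1030 without labelled MHC-IIlow replicate 2, and 8, 9 and 14 without labelled MHC-IIhigh replicates 2, 1 and 3 and 14 without labelled MHC-IIlow replicate 1. With the replicate block 0 checkpoint genes were called. The cause of these changes was not tested. Leaving out both libraries of batch 3 was chosen after seeing the data. Depth limited Pdcd1lg2 most, with 30 reads in all.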
